A study of Mus musculus with 24 samples.

Results

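The 7 genes described here carry out MHC class I antigen presentation, and they were followed in sorted mouse mammary epithelium with and without an oncogenic PIK3CA transgene. They are Psmb8 and Psmb9, Tap1 and Tap2, Tapbp, B2m and Nlrc5. Each was read from a probe set whose only annotated gene was the member, and all 7 were measured among 19937 genes in all. Only Nlrc5 had more than 1 such probe set, and the one with the highest mean over the 24 arrays was used.

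In this pathway proteins in the cytosol are cut into peptides by the proteasome, the peptides are pumped into the endoplasmic reticulum, and there they are loaded onto a class I heavy chain paired with beta-2 microglobulin for display to CD8+ T cells. Interferon gamma replaces the constitutive catalytic proteasome subunits with the inducible subunits of the immunoproteasome and raises most genes of the pathway together. Epithelial cells display class I at rest, and loss of its components is a known way for tumours to escape T cells.

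The arrays were Affymetrix mouse Gene 1.0 ST arrays, and the deposited values are log2 expression. All mice carried Lgr5-creERT2, a tamoxifen-activated Cre expressed under Lgr5, on a mixed FVB/C57BL6 background, and were studied 4 weeks after tamoxifen. Mutant mice also carried PIK3CA H1047R, an activated form of the catalytic subunit of PI3-kinase, and control mice did not. Cells lacking CD45 were sorted as basal when CD24 was low and Sca1 absent, and as luminal when CD24 was high, the luminal cells being split by Sca1. GFP marked expression of Lgr5 or of the transgene, and divided the cells further. This gave 8 groups of 3 arrays, namely basal GFP-negative, basal GFP-positive, Sca1-negative luminal and Sca1-positive luminal cells of mutant mice, and the same 4 populations from control mice. The luminal cells were GFP-positive in mutant mice and GFP-negative in control mice, so genotype and GFP state cannot be told apart there. Each sample was 250 cells from a pool of 2 to 3 mice, and its RNA was amplified before hybridisation. The age of the mice was not given in the sources used here.

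Lineage markers that the sort did not use were read for each gate, while CD24, Sca1 and GFP themselves were not read here. All 6 basal markers were lower, and all 5 luminal markers higher, in every luminal group than in its basal comparison. The mean of the 17 measured leukocyte markers lay between 4.06 and 4.34 on the log2 scale on every array, and Ptprc, which encodes CD45, had group means of 4.06 to 4.35. The median of all probe sets on an array lay between 4.39 and 4.55. Arrays of 1 group correlated with each other at r of 0.934 to 0.979 over the genes. Of the 8 groups, control basal GFP-positive had the lowest mean array weight, 0.59. In sorted bulk samples, fewer cells of a type and less RNA per cell cannot be told apart.

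Psmb9, Tap1, Psmb8 and Tap2 lie side by side in the mouse genome in that order on chromosome 17, in the class II region of the MHC. Psmb9 and Tap1 are read in opposite directions from a common promoter, with annotated starts 226 bases apart. Tapbp is on the same chromosome, B2m on chromosome 2 and Nlrc5 on chromosome 8. RefSeq promoter windows of GRCm38.p6, from 250 bases before the start to 50 after it, were matched for 5 of the 7 genes. Those of B2m, Tap1 and Psmb8 are shown because they cover a gene with a small lineage difference, the start region that Psmb9 and Tap1 share, and a gene with a large lineage difference. Capitals mark matches to the searched motifs.

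B2m promoter, chr2:122147437-122147736, plus strand: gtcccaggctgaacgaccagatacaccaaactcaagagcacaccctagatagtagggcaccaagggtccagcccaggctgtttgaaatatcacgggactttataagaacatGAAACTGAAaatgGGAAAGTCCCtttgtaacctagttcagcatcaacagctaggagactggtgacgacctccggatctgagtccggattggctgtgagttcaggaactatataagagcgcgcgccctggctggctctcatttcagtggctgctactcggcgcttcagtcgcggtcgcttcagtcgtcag

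Tap1 promoter, chr17:34187306-34187605, plus strand: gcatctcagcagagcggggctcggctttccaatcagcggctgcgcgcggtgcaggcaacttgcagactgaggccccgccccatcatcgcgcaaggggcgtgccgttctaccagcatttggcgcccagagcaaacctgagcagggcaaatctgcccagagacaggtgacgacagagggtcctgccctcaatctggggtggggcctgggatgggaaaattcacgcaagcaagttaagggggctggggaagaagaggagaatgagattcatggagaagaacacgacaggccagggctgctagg

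Psmb8 promoter, chr17:34197945-34198244, plus strand: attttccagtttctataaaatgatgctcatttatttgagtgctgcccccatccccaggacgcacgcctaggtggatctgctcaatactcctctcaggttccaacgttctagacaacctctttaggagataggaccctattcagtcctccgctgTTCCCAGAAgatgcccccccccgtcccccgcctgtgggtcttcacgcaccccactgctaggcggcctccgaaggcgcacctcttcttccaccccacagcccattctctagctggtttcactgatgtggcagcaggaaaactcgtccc

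Both strands were searched for the core of the interferon-stimulated response element (GAAANNGAA), the gamma-activated site (TTCNNNGAA) and the NF-kB consensus. The B2m window held 1 interferon-stimulated response element core at its bases 112 to 120 and 1 NF-kB match at bases 125 to 134. The Psmb8 window held 1 gamma-activated site match. The Tap1 window shares 275 of its 300 bases with that of Psmb9 on the other strand, and neither held a match, nor did the Tapbp window. Of all 32851 promoter windows, 8.56% held the response element core, 8.3% the gamma-activated site and 8.46% the NF-kB consensus.

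Psmb8, Psmb9 and Tap2 had their highest mean levels in luminal Sca1-positive cells and their lowest in basal cells, in both genotypes. Psmb8 was 3.85-fold and Psmb9 3.74-fold higher in mutant luminal Sca1-positive than in mutant basal GFP-positive cells, and Tap2 was 3.02-fold higher. In control mice the same 3 genes were 4.12-fold, 5.28-fold and 3.76-fold higher in luminal Sca1-positive than in basal GFP-negative cells. None of the 7 genes passed the test between mutant and control cells of any population. Calls are limma's moderated test with a Benjamini-Hochberg adjusted p under 0.05 over all 19937 genes, and ± is the SD of 3 arrays for a level and the standard error of the fit for a difference.

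**Figure D1:**
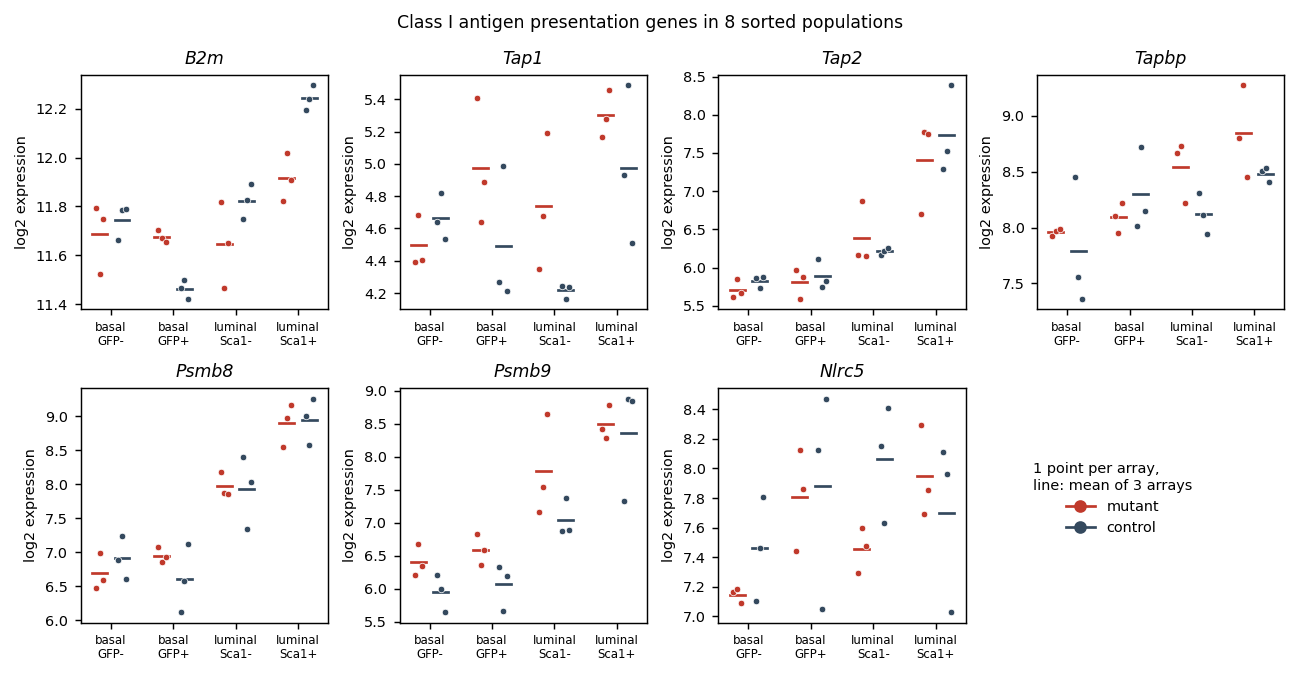
Log2 expression of the 7 genes (vertical axes, each with its own range) on each array, by sorted population (horizontal axis), with mutant arrays in red to the left of control arrays in dark blue and a line at each mean of 3. Psmb8, Psmb9 and Tap2 have their highest means in the luminal Sca1-positive cells of both genotypes, while the Nlrc5 groups overlap across populations.

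Psmb8 encodes the inducible beta5i subunit of the immunoproteasome. Its log2 levels in luminal Sca1-positive cells were 8.55, 8.98 and 9.17 in mutant mice and 9.01, 8.59 and 9.26 in control mice. In luminal Sca1-negative cells they were 8.18, 7.87 and 7.86 in mutant mice and 8.41, 7.35 and 8.04 in control mice. In basal cells they were 7.08, 6.86 and 6.93 in mutant GFP-positive, 6.48, 6.99 and 6.60 in mutant GFP-negative, 6.13, 6.58 and 7.13 in control GFP-positive and 6.89, 7.24 and 6.61 in control GFP-negative cells. The 12 luminal arrays all lay above the 12 basal arrays, and every Sca1-positive array lay above every Sca1-negative one.

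The log2 difference for Psmb8 between luminal Sca1-positive and basal cells was 1.95 ± 0.27 in mutant mice (adjusted p = 6.58e-05, limma) and 2.04 ± 0.27 in control mice (adjusted p = 3.26e-05, limma). Luminal Sca1-negative cells stood between them, with a difference from basal cells of 1.02 ± 0.27 in mutant mice and 1.02 ± 0.27 in control mice (limma adjusted p of 0.026 and 0.0225). The step between the luminal gates, Sca1-positive minus Sca1-negative, was 0.93 ± 0.27 in mutant mice, which did not pass (adjusted p = 0.0744, limma), and 1.02 ± 0.27 in control mice, which did (adjusted p = 0.0451, limma). These smaller steps were less stable. The mutant Sca1-negative call was lost when any 1 of its 6 arrays was left out, at adjusted p of 0.0528 to 0.111. The control Sca1-negative call held under 10 of 15 alternatives. It was lost without either of 2 luminal or 2 basal arrays, at adjusted p of 0.0646 to 0.119, and in a fit of only its own groups, at 0.156. The control step between the gates held under 7 of 15. It was lost without any of 4 arrays, at 0.0808 to 0.219, and in 4 settings that kept every array of the pair, 0.230 being the highest adjusted p.

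Psmb9 encodes the inducible beta1i subunit. Its levels in luminal Sca1-positive cells were 8.41, 8.29 and 8.78 in mutant mice and 7.33, 8.88 and 8.84 in control mice. In luminal Sca1-negative cells they were 7.16, 7.53 and 8.65 in mutant mice and 6.88, 7.37 and 6.88 in control mice. In basal cells they were 6.82, 6.36 and 6.59 in mutant GFP-positive, 6.20, 6.67 and 6.35 in mutant GFP-negative, 6.33, 5.66 and 6.19 in control GFP-positive and 6.21, 5.99 and 5.65 in control GFP-negative cells. All luminal arrays lay above all basal arrays, but the 2 luminal gates overlapped in both genotypes, with 1 mutant Sca1-negative array high and 1 control Sca1-positive array low.

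The log2 difference for Psmb9 between luminal Sca1-positive and basal cells was 1.90 ± 0.37 in mutant mice (adjusted p = 0.00189, limma) and 2.40 ± 0.37 in control mice (adjusted p = 0.000165, limma). Luminal Sca1-negative cells exceeded basal cells by 1.19 ± 0.37 in mutant mice and 1.09 ± 0.37 in control mice without passing the test (limma adjusted p of 0.0624 and 0.0777). The step between the luminal gates was 0.71 ± 0.37 in mutant mice and 1.31 ± 0.37 in control mice (limma adjusted p of 0.497 and 0.0629). The control step was called when the low Sca1-positive array was left out (log2 difference 1.82, adjusted p = 0.00425, limma).

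The other inducible subunit, Psmb10, and the constitutive subunits Psmb5, Psmb6 and Psmb7 that the inducible ones replace, were also read. Psmb10 passed in none of the 12 comparisons of group pairs, and its mutant luminal Sca1-positive minus basal difference was 0.30, with a 95% interval of -0.47 to 1.06. Of the 3 constitutive subunits, 0 passed between mutant luminal Sca1-positive and basal cells, and Psmb6 alone passed in control mice, with a log2 difference of 0.65 (adjusted p = 0.0433, limma). Psmb6 was also higher in control luminal Sca1-negative than in control basal GFP-negative cells, by 1.02 (adjusted p = 0.00279, limma), a difference of the same size as that of Psmb8 there. Psmb5 was higher in mutant than in control basal GFP-positive cells by 0.96 (adjusted p = 0.0171, limma), and in no comparison between populations did Psmb5 or Psmb7 pass. Psme1, a subunit of the PA28 activator that docks on the proteasome, was higher in luminal Sca1-positive than in basal cells by 1.13 in mutant mice and 1.07 in control mice (limma adjusted p of 0.0019 and 0.0026). The other PA28 genes read, Psme2 and Psme3, passed in neither of these comparisons. The differences of all 4 genes, Psmb10 among them, were positive in both.

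**Figure D2:**
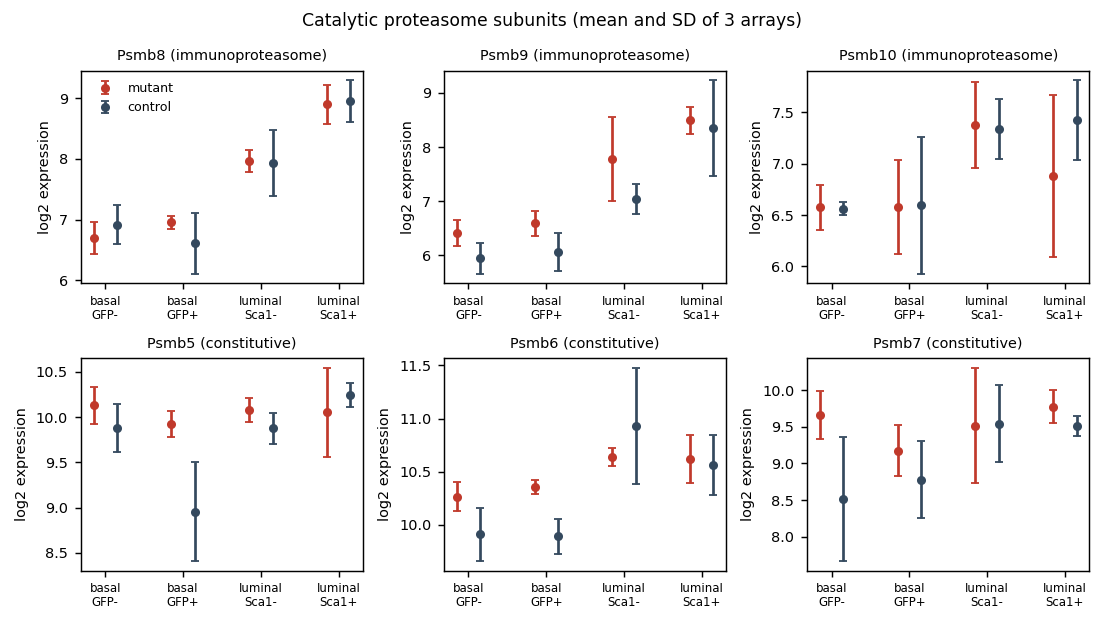
Mean log2 expression with SD of 3 arrays (vertical axes, each with its own range) for 3 immunoproteasome subunits (top) and the 3 constitutive subunits (bottom) by population, mutant in red left of control in dark blue. Psmb8 and Psmb9 means were lowest in basal, intermediate in Sca1-negative luminal and highest in Sca1-positive luminal cells of both genotypes, an order that Psmb5 lacks in mutant mice and Psmb6 in control mice. Of the 3 constitutive subunits, 1 was higher and 2 were lower in mean in Sca1-positive than in Sca1-negative luminal cells, in each genotype.

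Tap2 encodes a subunit of the TAP transporter, which carries peptides into the endoplasmic reticulum. Its levels in luminal Sca1-positive cells were 6.70, 7.77 and 7.75 in mutant mice and 7.30, 7.52 and 8.39 in control mice. In luminal Sca1-negative cells they were 6.16, 6.87 and 6.15 in mutant mice and 6.16, 6.22 and 6.25 in control mice. The 12 basal arrays ran between 5.59 and 6.11. The 12 luminal arrays lay above all basal ones, and the luminal gates overlapped in mutant mice only by 1 low Sca1-positive and 1 high Sca1-negative array.

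The log2 difference for Tap2 between luminal Sca1-positive and basal cells was 1.59 ± 0.27 in mutant mice (adjusted p = 0.000516, limma) and 1.91 ± 0.27 in control mice (adjusted p = 6.54e-05, limma). The step between luminal gates was 1.02 ± 0.27 in mutant mice (adjusted p = 0.0457, limma) and 1.52 ± 0.27 in control mice (adjusted p = 0.00273, limma). The mutant step was called under 6 of 15 alternatives, and it was lost without any of 4 of its 6 arrays, at adjusted p of 0.177 to 0.235. Luminal Sca1-negative cells differed from basal cells by 0.58 ± 0.27 in mutant mice and 0.39 ± 0.27 in control mice and did not pass (limma adjusted p of 0.284 and 0.478).

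Tap1, the partner of Tap2 in the transporter, had a mean of 4.73 over the 24 arrays, at the 51.8th percentile of the genes tested. Its levels in luminal Sca1-positive cells were 5.17, 5.28 and 5.46 in mutant mice and 4.93, 5.49 and 4.51 in control mice. In basal cells they were 5.41, 4.64 and 4.89 in mutant GFP-positive cells and 4.64, 4.82 and 4.53 in control GFP-negative cells. These arrays overlapped, and Tap1 passed no comparison: the luminal Sca1-positive minus basal difference was 0.32 in mutant mice, with a 95% interval of -0.21 to 0.86, and 0.31 in control mice, with an interval of -0.22 to 0.84. The Psmb9 differences in the same comparisons, from the opposite side of the promoter region printed above, were 1.90 and 2.40. Tap1 was dim, with group means of 4.22 to 5.30 beside array medians of 4.39 to 4.55, so the size of its differences is uncertain. Whether Tap1 and Psmb9 differed from each other was not tested.

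Tapbp encodes tapasin, which holds the empty class I molecule at the transporter. Its levels in luminal Sca1-positive cells were 8.81, 9.28 and 8.45 in mutant mice and 8.51, 8.54 and 8.41 in control mice. In basal cells they were 8.10, 7.95 and 8.22 in mutant GFP-positive cells and 8.46, 7.56 and 7.36 in control GFP-negative cells. The mutant arrays did not overlap, and 1 high control basal array overlapped the control luminal arrays. The differences, 0.75 ± 0.25 in mutant mice and 0.69 ± 0.25 in control mice, did not pass (limma adjusted p of 0.0658 and 0.0779). Without the high control basal array the control difference was 1.02 (adjusted p = 0.00438, limma), and without mutant luminal Sca1-positive replicate 3 the mutant difference was 0.95 (adjusted p = 0.0332, limma). Of 15 alternatives, the mutant difference was called under 4 and the control difference under 2. The highest limma adjusted p among them was 0.299 in mutant and 0.314 in control mice.

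B2m encodes beta-2 microglobulin, the light chain of every class I molecule, and was among the brightest genes, at the 99.7th percentile. Its levels in luminal Sca1-positive cells were 11.82, 12.02 and 11.91 in mutant mice and 12.20, 12.24 and 12.30 in control mice. In luminal Sca1-negative cells they were 11.82, 11.47 and 11.65 in mutant mice and 11.75, 11.83 and 11.89 in control mice. In basal cells they were 11.70, 11.67 and 11.66 in mutant GFP-positive, 11.79, 11.53 and 11.75 in mutant GFP-negative, 11.47, 11.50 and 11.42 in control GFP-positive and 11.66, 11.78 and 11.79 in control GFP-negative cells. The control Sca1-positive arrays lay above all 21 others.

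B2m was higher in control luminal Sca1-positive cells than in control Sca1-negative cells by 0.42 ± 0.09 (adjusted p = 0.00749, limma) and than in control basal GFP-negative cells by 0.50 ± 0.09 (adjusted p = 0.000468, limma). In mutant mice the same differences were 0.27 ± 0.09 and 0.24 ± 0.09 and did not pass (limma adjusted p of 0.105 and 0.096). The difference between the genotypes in the step between luminal gates, -0.15 with a 95% interval of -0.40 to 0.11, did not pass either (adjusted p = 0.85, limma). These folds were small beside those of Psmb8, Psmb9 and Tap2, the larger of them being 1.41-fold.

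**Figure D3:**
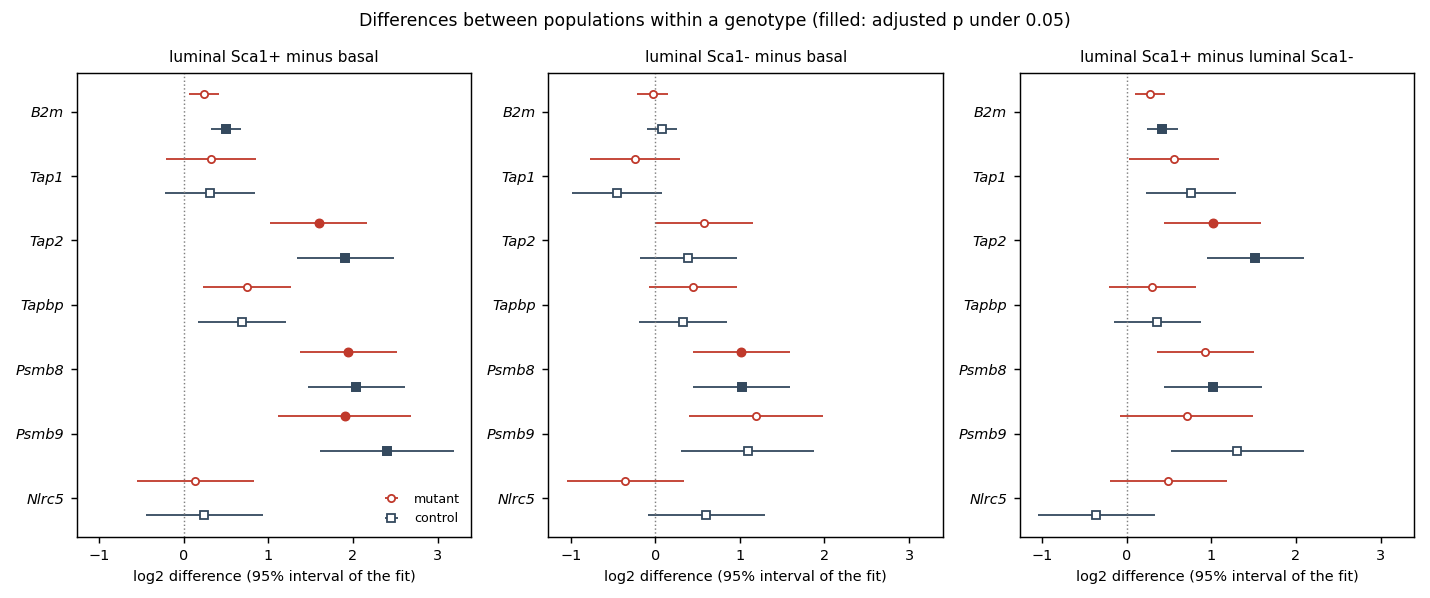
Log2 differences between populations within a genotype (horizontal axis, with the 95% interval of the fit) for the 7 genes, mutant in red above control in dark blue, filled where the adjusted p was under 0.05. Psmb8, Psmb9 and Tap2 are filled in both genotypes for luminal Sca1-positive minus basal cells, where the basal cells are GFP-positive in mutant and GFP-negative in control mice.

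In mutant mice 3 of the 7 genes passed as higher in luminal Sca1-positive than in basal cells and 0 as lower, where 4.73% of the genes tested were called higher and 4.99% lower. In control mice 4 passed as higher and 0 as lower, against 7.35% and 5.77% of the genes tested. The median log2 difference of the 7 was 0.75 in mutant mice and 0.69 in control mice, beside 0.04 and -0.03 over all genes. Between luminal Sca1-negative and basal cells 1 gene was higher in each genotype and 0 lower. The background was 3.62% higher and 4.24% lower in mutant mice, and 4.93% higher and 4.9% lower in control mice. Between the luminal gates 1 was higher in mutant mice, where 1.81% of genes were called higher and 1.85% lower, and 3 were higher in control mice, against 2.08% and 1.61%.

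Markers of other cell types were read beside these differences. The leukocyte marker mean was 4.14 to 4.26 in mutant luminal Sca1-positive cells and 4.08 to 4.12 in mutant basal GFP-positive cells. In control mice it was 4.06 to 4.16 in luminal Sca1-positive cells and 4.07 to 4.23 in basal GFP-negative cells. Of the 17 markers, 8 had every group mean under 4.17, the level below which the dimmest 33.3% of genes lay, and 0 passed between luminal Sca1-positive and basal cells of either genotype. Cd68, a macrophage marker in that list, was not dim, with group means of 6.19 to 8.27, and was higher in mutant luminal Sca1-negative cells, at 8.27, than in mutant basal GFP-positive cells, at 6.78 (adjusted p = 0.0077, limma), beside the Psmb8 call there. The mean of the 6 endothelial markers was 3.90 to 4.11 in mutant luminal Sca1-positive cells against 3.90 to 3.92 in mutant basal GFP-positive cells. Vwf alone of the 6 passed as higher there, by 0.31 (adjusted p = 0.0436, limma). In control mice it was 4.04 to 4.42 in luminal Sca1-positive cells against 3.94 to 4.06 in basal GFP-negative cells, and Pecam1 reached its highest group mean, 4.85, there. Among the 6 fibroblast markers, Col1a2 and Dcn were lower in mutant luminal Sca1-positive than in mutant basal GFP-positive cells, with log2 differences of -1.16 and -2.59, and both were also lower in mutant luminal Sca1-negative cells, at -1.20 and -4.39. In control mice Dcn was higher in luminal Sca1-positive than in basal GFP-negative cells, by 2.21 (adjusted p = 0.0402, limma). The fibroblast marker mean was 4.98 to 5.36 in mutant luminal Sca1-positive cells against 5.62 to 5.85 in mutant basal GFP-positive cells, and 5.49 to 5.63 in control luminal Sca1-positive cells against 5.10 to 5.54 in control basal GFP-negative cells. The part of leukocytes, endothelium and fibroblasts in the differences was not tested. The 4 measured markers of hormone-sensing luminal cells, among them Esr1 and Pgr for the oestrogen and progesterone receptors, averaged 7.46 to 8.63 in mutant luminal Sca1-positive and 5.08 to 6.37 in mutant luminal Sca1-negative cells. In control mice they averaged 8.47 to 9.13 in Sca1-positive and 6.33 to 7.47 in Sca1-negative cells.

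In the order of the 8 group means, most neighbours differed by less than the larger of their SDs. For Psmb8 only 2 steps exceeded it, 0.93 between mutant luminal Sca1-positive and mutant luminal Sca1-negative cells and 0.98 between control luminal Sca1-negative and mutant basal GFP-positive cells. For Tap2 the steps that did were 1.02 between mutant luminal Sca1-positive and mutant luminal Sca1-negative cells and 0.32 between control luminal Sca1-negative and control basal GFP-positive cells. Psmb9 had 1 such step, 0.45 between control luminal Sca1-negative and mutant basal GFP-positive cells, and Tapbp had 0. B2m had smaller ones, 0.33 between control and mutant luminal Sca1-positive cells and 0.08 between control luminal Sca1-negative and control basal GFP-negative cells. At the low end of the B2m order the step was 0.18, between mutant luminal Sca1-negative and control basal GFP-positive cells. Tap1 had 0.17 between control and mutant basal GFP-negative cells. Nlrc5 had 0.31 between mutant luminal Sca1-negative and mutant basal GFP-negative cells.

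Nlrc5 encodes the transactivator that assembles on class I promoters. The levels of its brightest probe set in luminal Sca1-positive cells were 8.29, 7.69 and 7.85 in mutant mice and 8.11, 7.96 and 7.03 in control mice. In basal cells they were 7.44, 8.12 and 7.86 in mutant GFP-positive and 7.11, 7.46 and 7.81 in control GFP-negative cells. The arrays overlapped in both genotypes, and the differences were 0.14, with a 95% interval of -0.55 to 0.83, in mutant mice and 0.24, with an interval of -0.45 to 0.93, in control mice.

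The 19 probe sets of Nlrc5 differed in level, and the other 18 averaged 4.03 to 5.86 against 7.68 for the brightest. Fitted one by one among 21640 probe sets, 2 of the 19 passed between control luminal Sca1-positive and basal GFP-negative cells, with log2 differences of 0.63 and 1.07 (limma adjusted p of 0.0195 and 0.0363), and 17 of 19 were positive. Both were dim in the basal cells, where their values were 4.08, 4.11 and 4.18 for the smaller difference and 3.69, 3.76 and 4.26 for the larger, around the level of the dimmest 33.3% of genes, so the size of these differences is uncertain. For the larger difference the luminal arrays, 5.04, 3.88 and 5.99, overlapped the basal ones. In the mutant comparison 13 of 19 were positive and 0 passed. The shares of all 21640 probe sets that passed or were positive are not given here. Over genes, 7.35% were called higher in the control comparison. The 19 probe sets read 1 gene on the same arrays, so their signs are not independent. With the probe sets of a gene averaged, the control difference was 0.43 (adjusted p = 0.0313, limma).

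**Figure D4:**
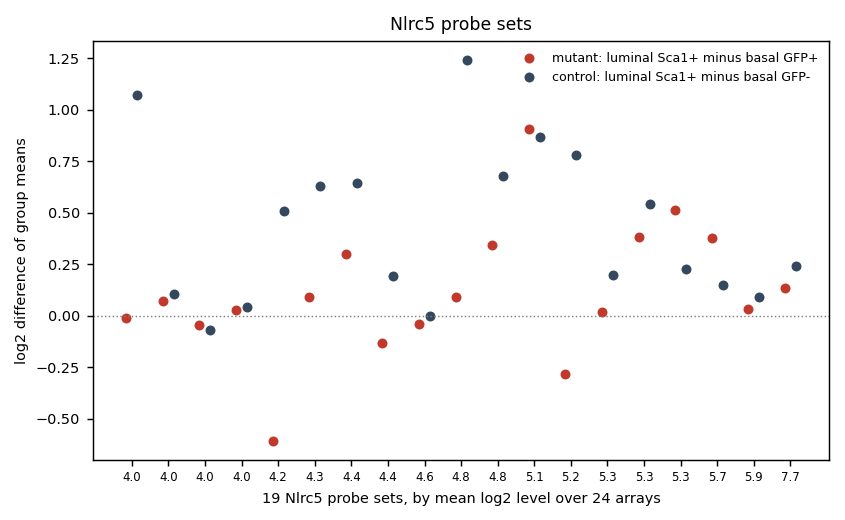
Log2 difference between luminal Sca1-positive and basal cells (vertical axis) for each of the 19 Nlrc5 probe sets, ordered by mean log2 level over the 24 arrays (horizontal axis), mutant in red left of control in dark blue. Of the 19, 13 are positive in mutant mice and 17 in control mice, and the brightest, at 7.68, has differences of 0.14 in mutant and 0.24 in control mice, beside medians over the 19 of 0.07 and 0.24.

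Mutant and control cells of each population were compared for the 7 genes. GFP marked expression of Lgr5 or of the transgene, so mutant basal GFP-negative cells lacked that mark. In basal GFP-positive cells GFP could mark the transgene in mutant mice only. These comparisons are therefore between genotypes and do not isolate expression of PIK3CA H1047R. In luminal Sca1-positive cells 0 of 7 passed, where the called genes came to 0.401% higher and 0.376% lower, and in luminal Sca1-negative cells 0 of 7, against 0.557% and 0.171%. In basal GFP-positive cells 0 of 7 passed, where 4.74% of genes were called higher and 7.81% lower. In basal GFP-negative cells 0 of 7 passed, against 0.0451% and 0.015%. At an unadjusted p under 0.05, limma gave B2m in luminal Sca1-positive cells, B2m in basal GFP-positive cells and 0 of the 7 in the other 2 populations. The share of all genes under that unadjusted cut is not given here, and the percentages above are for adjusted p.

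B2m stood 0.33 lower in mutant than in control luminal Sca1-positive cells, with a 95% interval of -0.51 to -0.15, and the arrays did not overlap, but it did not pass over all genes (adjusted p = 0.115, limma). In basal GFP-positive cells B2m stood 0.21 above control with an interval of 0.03 to 0.39 (adjusted p = 0.101, limma). With control basal GFP-negative arrays in their place, a comparison chosen after the data were seen, that difference was -0.07 (adjusted p = 0.739, limma). The control basal GFP-positive arrays also carried the lowest B2m mean of the 8 groups.

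Psmb9 had the largest positive estimate in luminal Sca1-negative cells, 0.74 with an interval of -0.05 to 1.53 (adjusted p = 0.496, limma), its 3 mutant arrays being 7.16, 7.53 and 8.65 against 6.88, 7.37 and 6.88 in control mice. Tap1 in the same population was 4.35, 4.68 and 5.19 in mutant mice against 4.24, 4.17 and 4.24 in control mice, which did not overlap (difference 0.52, adjusted p = 0.462, limma). Nlrc5 ran the other way there, at 7.29, 7.60 and 7.47 in mutant mice against 8.15, 7.63 and 8.40 in control mice (difference -0.61, adjusted p = 0.523, limma). For Psmb8 the estimate was 0.04 in luminal Sca1-negative cells, with an interval of -0.54 to 0.62, and -0.05 in luminal Sca1-positive cells, with an interval of -0.63 to 0.52.

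**Figure D5:**
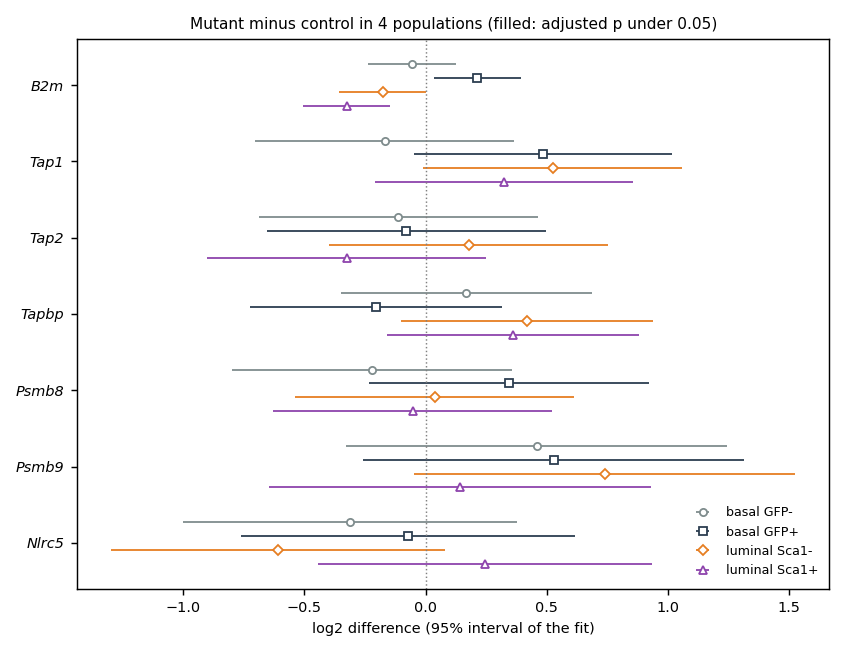
Mutant minus control log2 differences (horizontal axis, with the 95% interval of the fit) of the 7 genes in 4 populations, which are named in the legend. No marker is filled, since no adjusted p was under 0.05, and the B2m interval lies below 0 in luminal Sca1-positive cells and above 0 in basal GFP-positive cells.

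Cell type markers also moved with genotype in each population. In basal GFP-negative cells the mean of the 5 luminal markers was 8.84 to 9.26 in mutant and 8.12 to 8.39 in control mice. The luminal progenitor mean there was 6.13 to 6.98 in mutant and 5.19 to 6.23 in control mice, which overlapped. In luminal Sca1-positive cells the mean of the 5 luminal progenitor markers was 6.91 to 8.80 in mutant and 6.20 to 6.51 in control mice, and Aldh1a3 passed as higher. The mean of the 4 hormone-sensing markers was 7.46 to 8.63 in mutant and 8.47 to 9.13 in control mice there, and Prom1 passed as lower. The fibroblast marker Dcn was lower in mutant than in control cells of both luminal gates, with log2 differences of -3.01 in Sca1-positive and -3.29 in Sca1-negative cells, and higher in mutant basal GFP-positive cells, by 4.30. Col1a2 was also higher in mutant basal GFP-positive cells, by 0.46, and the leukocyte marker Csf1r and the endothelial marker Vwf were lower there, with differences of -0.30 and -0.40. In luminal Sca1-negative cells the hormone-sensing mean was 5.08 to 6.37 in mutant and 6.33 to 7.47 in control mice, with Prom1 lower, and Cd68 was higher by 1.52 (adjusted p = 0.0431, limma). The mean of the 6 basal markers was 6.91 to 7.44 in mutant and 5.54 to 5.63 in control luminal Sca1-negative cells, and that of the 5 luminal progenitor markers was 7.17 to 7.34 in mutant and 4.58 to 5.39 in control basal GFP-positive cells. Their part in the differences above was not tested. Within basal cells, 0 of 7 genes passed between GFP-positive and GFP-negative cells of mutant mice, where 1.77% of genes were called higher and 0.737% lower. In control mice 0 passed as well, against 0.507% and 0.747%. At an unadjusted p under 0.05 limma gave 0 of the 7 in mutant mice and B2m alone of the 7 in control mice, the share of all genes at that cut not being given here. The 3 differences of the mutant effect between populations had 0 of 7 genes called, against 0.161% of genes between the luminal gates, 1.07% between the basal GFP states and 1.03% between luminal Sca1-negative and basal GFP-positive cells. B2m was the 1 gene of the 7 with an unadjusted p under 0.05 in each of the last 2, and there was none of the 7 in the first. The share of all genes at that unadjusted cut is again not given here.

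Across the 24 arrays Tap2, Psmb8 and Psmb9 varied together, with Pearson r of 0.87 between Tap2 and Psmb8, 0.83 between Tap2 and Psmb9 and 0.83 between Psmb8 and Psmb9. B2m followed Tap2 at 0.73, and Nlrc5 had r of -0.05 to 0.22 with the other 6. After each group's mean was removed all 21 pairs lay between -0.47 and 0.31. These values describe 24 arrays that share 8 group means. The mean of the 7 centred levels was 0.60 to 0.83 in mutant and 0.55 to 0.81 in control luminal Sca1-positive arrays, and the 5 other genes most like it over the 24 arrays were Rhbdf2 (r = 0.970), which encodes a partner of the sheddase ADAM17, Plekhg3, Sipa1l3, Mpzl3 and Hid1 (r = 0.954 for the last). Hid1 averaged 8.07 in mutant and 8.10 in control luminal Sca1-positive cells, and 4.14 to 4.78 in the 4 basal groups.

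Other genes of the pathway were read from lists of its parts. Of the 21 listed class I heavy chains 9 had a probe set of their own, and H2-K1 and H2-D1 were not among them. H2-Q4, a non-classical class I heavy chain, was the only one of the 9 called between luminal Sca1-positive and basal cells, higher by 0.95 in mutant mice and 1.39 in control mice (limma adjusted p of 0.0121 and 0.00037). It was also higher in control luminal Sca1-negative than in control basal GFP-negative cells, by 0.86 (adjusted p = 0.0244, limma). In mutant basal GFP-positive cells H2-Q5 was lower than in control by 0.56 (adjusted p = 0.0291, limma).

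Of the 7 measured loading and trimming genes, 3 were lower and 0 higher in mutant luminal Sca1-positive than basal cells, the chaperones Calr (-0.68), Pdia3 (-0.71) and Canx (-0.43). In control mice 0 were lower and 1 was higher, the chaperone Hspa5 (0.51). Calr and Pdia3 were also higher in mutant than in control basal GFP-positive cells, by 0.74 and 0.81, the only 2 of the 7 called there. In control mice Pdia3 was itself lower in basal GFP-positive than in basal GFP-negative cells, by 0.63 on the log2 scale (adjusted p = 0.0451, limma), and the Calr difference was -0.47 (adjusted p = 0.0911, limma). These chaperones fold many proteins besides class I.

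Of the 13 measured interferon receptor and signalling genes, Irf1, an interferon-induced transcription factor, was lower in luminal Sca1-positive than in basal cells by 1.33 on the log2 scale in mutant mice and 2.13 in control mice (limma adjusted p of 0.0257 and 0.000499). Jak2, a kinase of the interferon gamma receptor, was higher by 1.05 and 1.77 (limma adjusted p of 0.018 and 0.00016), and Jak1 was higher by 0.62 in control mice. Of the 4 measured NF-kB subunits, 1 was higher in mutant luminal Sca1-positive cells than in basal cells (Relb, 0.89) and 3 in control mice (Rel, Nfkb2 and Rela, by 1.80, 1.39 and 1.12). Of the 7 enhanceosome genes, Nfyb, a subunit of NF-Y, was lower by 1.60 in mutant and 1.36 in control mice, and Creb1 by 0.94 in control mice. H2-DMa of the class II pathway was the only one of 6 called, higher by 0.57 in mutant and 0.96 in control mice. Some of these genes also differed between luminal Sca1-negative and basal cells. Irf1 was lower there by 1.32 in mutant and 1.37 in control mice. Nfkb2 and Rela were higher by 1.04 and 0.97 in mutant mice. In control mice Nfkb2, Rel, Rela and Jak1 were higher by 2.02, 2.08, 1.37 and 0.90, and Nfyb was lower by 1.31. Jak2, Relb, Creb1 and H2-DMa were not called there.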

How the data were processed

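The authors deposited log2 expression values per probe set for 24 arrays. Per the submitters' processing notes the software affy was used, and its version, the background correction, the normalization and the genome build are not given in the sources used here. The log2 scale was taken from the values, 2.59 to 13.5. The platform annotation gave 1 symbol to 21640 of 34760 probe sets, and the brightest per gene gave 19937 genes. A limma fit (limma 3.58.1, R 4.3.3) gave each of the 8 groups a mean, with 16 residual degrees of freedom. It tested 12 group pairs and 3 differences of effects, two-sided, with Benjamini-Hochberg adjustment within each. Replicates are pools from 3 sortings, and the number of arrays limits the precision. The code was tested on simulated data. The 7 genes, the gene lists and the tests were chosen with earlier results of these data known. Named genes are the 7, up to 4 called genes of each list with the smallest p, and the 5 genes most like the mean of the 7. Promoter windows are RefSeq's. Alternatives were quantile normalization, median centring, a filter on dim genes, array weights, fits of only the compared groups or without the control basal GFP-positive arrays, a trended robust prior, averaged probe sets, a replicate block and leaving out each array. Levels under other scalings, single Nlrc5 probe sets and another control for basal GFP-positive cells were added after seeing the data. Same-numbered arrays deviated together weakly at most, with r of -0.08 to 0.18, mostly above 0, and every pair over 0.1 in 0 of 12 comparisons. Replicates were therefore not paired in the main fit.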

Additional observations from a re-analysis of the deposited data

How the results depend on the processing

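The calls between luminal Sca1-positive and basal cells held under all 15 alternatives run for each: Tap2, Psmb8 and Psmb9 in mutant mice, and these 3 with B2m in control mice. Quantile normalization and array weights each gave 5 called genes in the mutant comparison, against 3. For mutant luminal Sca1-positive minus Sca1-negative cells, with 1 gene called, median centring, a fit of only the compared groups, a trended robust prior and a fit without the control basal GFP-positive arrays gave 0, array weights gave 2, and leaving out 1 array gave 0 to 1. Quantile normalization lost Tap2 there and called B2m instead (limma adjusted p of 0.0679 and 0.0217). Leaving out mutant luminal Sca1-negative replicate 1 did the same (limma adjusted p of 0.193 and 0.0363). In control mice the same comparison, with 3 called, gave 0 when the fit held only its own groups, where fewer samples estimate the spread. Mutant luminal Sca1-negative minus basal cells, with 1 called, gave 2 without dim genes or with array weights, and 0 to 1 without 1 array. The control counterpart, with 1 called, gave 0 to 1 without 1 array. The cause of these changes was not tested. With replicate number as a block, the control comparison of luminal gates had 2 genes called, against 3, because Psmb8 had an adjusted p of 0.0597 in limma. Quantile normalization, the fit of its own groups and the robust prior also lost Psmb8, at 0.145, 0.230 and 0.0587. All alternatives gave 0 called genes between mutant and control cells. Centring moved the median of all genes in the basal GFP-positive comparison to 0.00, against -0.10 as deposited. Group levels moved by more than their SD in 4 of 56 cases under quantile normalization, 2 under centring and 8, all of Nlrc5, with averaged probe sets.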
